A study of Mus musculus with 24 samples.

Results

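Nucleotide and one-carbon synthesis was examined as a set of 33 genes, chosen by symbol for their place in the pathway, out of 24537 gene rows in the count table. All 33 were found and all 33 passed the filter on low counts. They were measured by polyA RNA-seq of 2 whole mouse muscles, the extensor digitorum longus (EDL), made mainly of fast-twitch fibers, and the soleus (SOL), rich in slow-twitch fibers. Every mouse was 2 months old, carried one allele of a polycistronic cassette for Oct4, Sox2, Klf4 and Myc (OSKM; 4Fhet), and had doxycycline (Dox) in its drinking water at 1 mg/ml, given over 2.5 days, 5.5 days or 8.5 days. Acta1-Cre+/4Fhet mice (Cre+) express Cre from the promoter of skeletal actin, which removes the stop sequence before the rtTA trans-activator and GFP in myofibers, so that Dox switches the cassette on there. Acta1-Cre-/4Fhet mice (Cre-) carry the same transgenes and received the same Dox but no Cre. Each of the 12 groups held 2 libraries. The labels name them as separate samples. For each gene, p-values rest on an estimate of the spread within groups that all groups of a fit share. They do not weigh the spread of the compared groups alone. The study set the libraries of 5.5 days aside, and they are given here in a separate fit. In whole muscle, fewer cells of a type and less RNA per cell cannot be told apart.

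Purine rings are built on phosphoribosyl pyrophosphate (PRPP) in a chain of reactions that ends in inosine monophosphate (IMP), from which separate branches lead to AMP and GMP. Pyrimidines are built as a ring first and joined to PRPP afterwards. Serine made from a glycolytic intermediate hands its side-chain carbon to folate, and the loaded folates give carbon to the purine ring and to thymidylate. Resting muscle fibers do not replicate DNA, yet they turn over a large adenine nucleotide pool during contraction, through AMP deaminase and the muscle form of adenylosuccinate synthetase (the purine nucleotide cycle). Many enzymes of these routes are known targets of Myc, and the serine and mitochondrial folate enzymes are known targets of Atf4, a factor of the amino acid response.

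Libraries of 2.5 and 8.5 days held 36088781 to 53041969 counted reads and those of 5.5 days 37834210 to 54679082. Members received from 25 counts (Tyms, in the library where it was lowest) to 90952 counts (Adssl1). The libraries of a group differed most in Cre+ EDL at 2.5 days and Cre- EDL at 8.5 days, with a mean chi-square of 139 and 131 per gene between their counts, against 24.98 to 70.8 in the other groups. The cassette was read in the Cre+ EDL libraries of 2.5 days, where Myc stood at 25.4 FPKM in replicate 1 and 99.4 FPKM in replicate 2, against 3.18 and 2.44 FPKM in Cre-, with endogenous and cassette reads not told apart. Replicate 2 was also the higher for Pou5f1, with 70.5 against 17.5 FPKM. Myc stood at 87.1 and 77.2 FPKM in Cre+ EDL at 8.5 days, and at 8.17 to 18.1 FPKM in Cre+ SOL at 2.5 and 8.5 days. FPKM, the level used throughout, is the read count over the deposited gene length and over the library's total, on the usual FPKM scale. Log2 fold changes come instead from an edgeR fit with TMM scaling. A gene counts as risen or fallen only when its Benjamini-Hochberg adjusted p was under 0.05 and its log2 fold change exceeded 0.5 in size. In EDL at 2.5 days the TMM factors were 1.13 and 1.21 in Cre+ and 0.940 and 0.908 in Cre-. FPKM leaves these factors out, so there it sets Cre+ higher beside Cre- than the log2 fold changes do.

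The windows around the transcription start of 6 members are shown because they bear on genes that carry the findings: 3 that rose at 2.5 days and hold CACGTG, Ppat, which lies head to head with Paics, and Psat1 and Mthfd1l, which rose most. Each runs from 250 bases before the RefSeq start to 50 bases after it on GRCm38.p6 (mm10), 5′ to 3′, with CACGTG in capitals. CACGTG is the E-box known as the preferred site of Myc with its partner Max.
Paics, chr5:76951052-76951351, plus strand: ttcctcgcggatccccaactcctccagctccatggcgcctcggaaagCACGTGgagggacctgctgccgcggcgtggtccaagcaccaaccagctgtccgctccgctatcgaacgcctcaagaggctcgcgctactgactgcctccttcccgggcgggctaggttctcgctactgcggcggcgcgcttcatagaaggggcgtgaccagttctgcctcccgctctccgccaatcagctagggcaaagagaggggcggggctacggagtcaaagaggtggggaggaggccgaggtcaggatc
Atic, chr1:71556906-71557205, plus strand: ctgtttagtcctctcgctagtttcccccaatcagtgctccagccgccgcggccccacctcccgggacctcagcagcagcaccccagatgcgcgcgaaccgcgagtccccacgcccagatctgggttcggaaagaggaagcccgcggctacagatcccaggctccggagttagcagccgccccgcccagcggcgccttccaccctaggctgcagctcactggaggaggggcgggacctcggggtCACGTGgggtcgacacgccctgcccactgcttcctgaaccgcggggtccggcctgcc
Impdh2, chr9:108560186-108560485, plus strand: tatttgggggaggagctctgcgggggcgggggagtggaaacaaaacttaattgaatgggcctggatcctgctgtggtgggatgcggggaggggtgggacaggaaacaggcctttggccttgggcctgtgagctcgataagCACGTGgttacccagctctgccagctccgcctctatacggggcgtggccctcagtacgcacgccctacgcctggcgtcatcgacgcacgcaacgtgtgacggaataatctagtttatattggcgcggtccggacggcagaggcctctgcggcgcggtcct
Ppat, chr5:76951529-76951828, minus strand: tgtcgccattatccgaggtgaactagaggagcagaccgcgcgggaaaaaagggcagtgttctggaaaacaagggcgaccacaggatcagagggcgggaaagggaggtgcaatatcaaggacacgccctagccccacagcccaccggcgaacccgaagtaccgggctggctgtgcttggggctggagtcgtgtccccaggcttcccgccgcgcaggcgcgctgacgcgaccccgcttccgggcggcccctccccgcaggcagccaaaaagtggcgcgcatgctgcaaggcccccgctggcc
Psat1, chr19:15924573-15924872, minus strand: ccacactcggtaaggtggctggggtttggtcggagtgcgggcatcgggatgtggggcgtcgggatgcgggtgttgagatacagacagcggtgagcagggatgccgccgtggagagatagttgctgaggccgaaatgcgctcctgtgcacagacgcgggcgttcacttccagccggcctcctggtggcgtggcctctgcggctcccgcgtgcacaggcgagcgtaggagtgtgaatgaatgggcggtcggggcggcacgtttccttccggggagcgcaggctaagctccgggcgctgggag
Mthfd1l, chr10:3972825-3973124, plus strand: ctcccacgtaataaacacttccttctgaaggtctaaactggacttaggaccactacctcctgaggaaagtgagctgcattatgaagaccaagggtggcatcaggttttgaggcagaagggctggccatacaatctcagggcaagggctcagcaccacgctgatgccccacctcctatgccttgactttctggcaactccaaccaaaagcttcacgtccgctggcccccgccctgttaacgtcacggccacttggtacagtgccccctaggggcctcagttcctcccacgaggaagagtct

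RefSeq windows were matched for 30 of the 33 members, not for Dhodh, Pfas and Ampd1. CACGTG, which reads the same on both strands, lay in at least 1 window of 6 of the 30 (20%), against 8.09% of 27025 genes with a window and 11.2% of the 11683 of those that were tested here. Of the 12 members that rose in Cre+ EDL at 2.5 days, 4 held it (33.3%). They were Paics, 203 bases before the start, Impdh2, 110 before, Ampd3, 78 before 1 of its starts, and Atic, 7 before. The calls of Paics and Impdh2 stood without any 1 of the 4 EDL libraries, whereas those of Ampd3 and Atic did not. Paics, Impdh2 and Atic have 1 window each, whereas Ampd3 has 3 and held it at 1 of them, whose start lies inside the deposited gene model. None of the 4 matched members that fell held it, and 2 of the 14 matched members not called did (Tyms and Nme1). TGATGNAA, the core of the amino acid response element, searched on both strands, was present in 1 member (Prps1, 3.33% of 30, against 4.51% of all genes and 2.81% of those tested) and in no member that rose. These are descriptions of letters in short windows, and no binding was measured.

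Paics and Ppat, the genes of the fused carboxylase and synthetase of the purine chain and of its first committed enzyme, start on opposite strands of chromosome 5. In the deposited gene models Ppat spans 76913249-76951578 and Paics 76951411-76967505, so that they overlap from 76951411 to 76951578. In the count table Paics was called at 2.5 days and Ppat at 8.5 days, and on neither day were both, as given below with the purine enzymes. The library kit marks strand, the setting used for counting is not given in the sources used here, and reads of the overlap may have been shared between them.

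After 2.5 days of Dox, 18 of the 33 members changed in Cre+ EDL muscles, 12 upwards (36.4%) and 6 downwards (18.2%). Over all 15372 genes tested, 24% were called, 13.8% upwards and 10.2% downwards. The members were chosen with earlier results of these data known, which limits this comparison of shares. Members of purine, pyrimidine, serine and folate synthesis were among those that rose, whereas those that fell included the muscle forms of adenine nucleotide turnover (Ampd1 and Adssl1) and 2 genes of deoxynucleotide supply (Rrm1 and Tk1). The median log2 fold change was 0.20 over the members and -0.05 over all genes tested. In FPKM, both Cre+ libraries lay above both Cre- libraries for 22 members and below them for 6, where 52.1% and 15.4% of all genes did so. The 15 members that were not called ranged from -0.46 for Adsl to 0.34 for Prps1 on the log2 scale.

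After 8.5 days, 7 members were called in Cre+ EDL muscles, 3 upwards (9.09%) and 4 downwards (12.1%), against 14.1% of all genes tested, 7.63% upwards and 6.5% downwards. In FPKM, 18 members had both Cre+ libraries above both Cre- libraries and 5 had them below, where 40.3% and 15.5% of all genes did so. The Cre- libraries of this comparison differed from each other, and members took 0.282% of the reads in replicate 1 and 0.381% in replicate 2. Without Cre- replicate 1 the log2 fold changes of Psat1 and Impdh1 were 1.30 and 1.01. Without Cre- replicate 2 they were 2.33 and 1.42. The number of members called moved with the library left out, as did that of all genes called. Psat1, Mthfd1l and Impdh1 rose and Pfas, Adssl1 and Psph fell at both times, and Ppat was called, downwards, at 8.5 days and not at 2.5 days. The median log2 fold change was 0.12 over the members and -0.02 over all genes. Without any 1 of the 4 EDL libraries of its day, 12 of the 18 calls of 2.5 days stood and 2 of the 7 calls of 8.5 days (Impdh1 and Psat1). With edgeR on the 4 libraries of a comparison, 7 members rose and 3 fell at 2.5 days, with Atic, Ampd3, Cad, Ctps, Rrm2, Pfas, Ampd1 and Psph no longer called, and 2 rose and 2 fell at 8.5 days, with Mthfd1l, Pfas and Adssl1 no longer called. Scaling by library size alone moved the median of all genes at 2.5 days from -0.05 to 0.28 and gave 16 members up and 4 down, and at 8.5 days, where the median moved from -0.02 to 0.16, it gave 7 up and 3 down. The shares of all genes given above belong to the fit of 16 libraries with TMM scaling, not to these other settings.

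**Figure D1:**
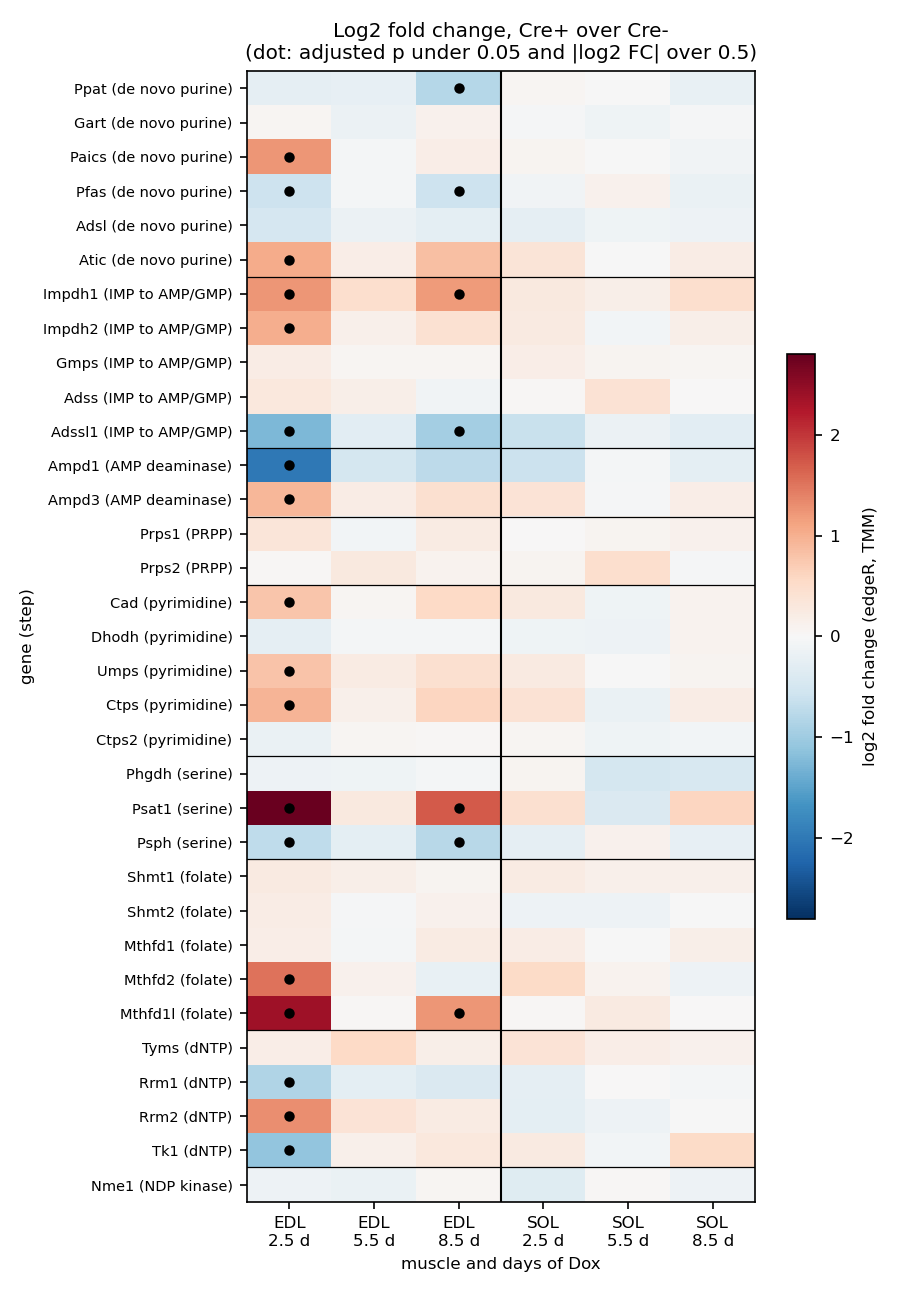
Log2 fold change of Cre+ against Cre- (color, edgeR with TMM scaling) for the 33 members, in rows ordered by role, in each muscle and day of Dox, with a dot on the values that were called. The called values lie in the EDL columns of 2.5 and 8.5 days (18 and 7 of 33), and none lies in a SOL column.

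The serine pathway held the member with the highest log2 fold change and one of those that fell. Psat1, phosphoserine aminotransferase (chr19:15905123-15924622), stood at 0.981 and 1.38 FPKM in Cre- EDL at 2.5 days and at 10.4 and 10.1 FPKM in Cre+ EDL. At 8.5 days it stood at 1.04 and 2.08 FPKM in Cre- and at 5.91 and 5.82 FPKM in Cre+. The Cre+ libraries were close to each other on each day and well above the Cre- libraries. The log2 fold change was 2.78 ± 0.31 (SE) at 2.5 days (edgeR adjusted p = 7.0e-05) and 1.72 ± 0.30 at 8.5 days (edgeR adjusted p = 0.0023), in 2 of 2 Cre+ libraries each. Psph, phosphoserine phosphatase, which takes the next and last step to serine (chr5:129765558-129787253), went the other way. Its levels were 6.23 and 7.54 FPKM in Cre- and 5.04 and 5.50 FPKM in Cre+ at 2.5 days, and 7.98 and 7.27 FPKM in Cre- and 5.06 and 5.01 FPKM in Cre+ at 8.5 days. The groups did not overlap on either day, and the fall was small beside the rise of Psat1. Its log2 fold change was -0.72 ± 0.15 (edgeR adjusted p = 0.0036) at 2.5 days and -0.78 ± 0.15 (edgeR adjusted p = 0.0044) at 8.5 days. The Psph gene shares exon bases with its neighbour Cct6a, and the fall at 8.5 days was not called without Cre+ replicate 1 (-0.73). That at 2.5 days was not called by library size alone (-0.39) or by edgeR on the 4 libraries alone (-0.70). Phgdh, which opens the pathway, was not called (-0.14 at 2.5 days).

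Of the 5 folate enzymes, Mthfd1l and Mthfd2 rose at 2.5 days. Mthfd1l, which releases formate from 10-formyl-folate in mitochondria (chr10:3973075-4156130), stood at 0.759 and 0.794 FPKM in Cre- EDL and at 3.31 and 6.91 FPKM in Cre+ EDL at 2.5 days. At 8.5 days it stood at 0.285 and 0.482 FPKM in Cre- and at 1.12 and 0.962 FPKM in Cre+. The groups did not overlap, and the level of all 4 EDL libraries was lower at 8.5 days than that of the Cre+ libraries at 2.5 days. Its log2 fold change was 2.37 ± 0.31 (edgeR adjusted p = 0.00019) at 2.5 days and 1.24 ± 0.32 (edgeR adjusted p = 0.020) at 8.5 days, the latter not called without Cre- replicate 1 (0.91) or either Cre+ library. Mthfd2, the mitochondrial dehydrogenase and cyclohydrolase that makes 10-formyl-folate, stood at 2.18 and 2.47 FPKM in Cre- and 7.01 and 9.76 FPKM in Cre+ at 2.5 days, a log2 fold change of 1.51 ± 0.24 (edgeR adjusted p = 0.00061). At 8.5 days it stood at 2.91 and 4.29 FPKM in Cre- and 3.53 and 3.49 FPKM in Cre+, with a log2 fold change of -0.22 that was not called. The Cre+ libraries then lay between the Cre- libraries. The serine hydroxymethyltransferases Shmt1 (cytosolic) and Shmt2 (mitochondrial) and the cytosolic Mthfd1 were not called at 2.5 days, with log2 fold changes of 0.25, 0.22 and 0.19.

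Of the 6 enzymes of the purine chain to IMP, Paics and Atic rose and Pfas fell at 2.5 days. Paics stood at 48.6 and 49.1 FPKM in Cre- EDL and at 113 and 179 FPKM in Cre+ EDL, a log2 fold change of 1.24 ± 0.16 (edgeR adjusted p = 0.00018). At 8.5 days its levels were 44.1 and 45.6 FPKM in Cre- and 61.1 and 54.8 FPKM in Cre+, with a log2 fold change of 0.19 that was not called. Ppat, the amidotransferase that commits PRPP to purines, stood at 8.89 and 10.3 FPKM in Cre- and 8.06 and 12.2 FPKM in Cre+ at 2.5 days. The Ppat groups overlapped at 2.5 days, whereas the Paics groups lay far apart. At 8.5 days Ppat stood at 9.52 and 10.04 FPKM in Cre- and 5.92 and 6.74 FPKM in Cre+, and it fell by 0.80 ± 0.17 on the log2 scale (edgeR adjusted p = 0.0078), not called without Cre+ replicate 1 (-0.66). The ratio of Paics to Ppat in FPKM was 5.47 and 4.78 in Cre- EDL at 2.5 days and 14.1 and 14.6 in Cre+ EDL. It was thus alike in the Cre+ libraries although each gene was higher in replicate 2.

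Atic, which closes the purine ring with a formyl group from folate, stood at 10.1 and 12.1 FPKM in Cre- EDL and at 19.8 and 37.8 FPKM in Cre+ EDL at 2.5 days. Its log2 fold change was 1.03 ± 0.29 (edgeR adjusted p = 0.018), and it was not called without Cre+ replicate 2 (0.55) or without either Cre- library. At 8.5 days the difference of 0.84 was not called (edgeR adjusted p = 0.068), but it was called in 5 of 10 other settings, DESeq2 on 16 libraries among them, and it ranged from 0.44 to 1.41 when 1 library was left out, called without Cre- replicate 2. Pfas, which takes nitrogen from glutamine in the middle of the chain (chr11:68985701-69008460), stood at 8.0 and 6.19 FPKM in Cre- and 6.51 and 5.39 FPKM in Cre+ at 2.5 days, and at 7.97 and 6.01 FPKM in Cre- and 5.91 and 4.64 FPKM in Cre+ at 8.5 days. In FPKM the groups overlapped at 2.5 days and were separated by a narrow gap at 8.5 days. With TMM-scaled library sizes they overlapped on neither day. Its log2 fold change was -0.58 ± 0.18 (edgeR adjusted p = 0.029) and -0.59 ± 0.18 (edgeR adjusted p = 0.042). It was not called at 2.5 days without Cre+ replicate 2 (-0.40) or Cre- replicate 1 (-0.41), nor at 8.5 days without Cre- replicate 1 (-0.39) or either Cre+ library. By library size alone it was -0.25 at 2.5 days and -0.41 at 8.5 days and was called on neither day. Gart was not called (0.05 at 2.5 days), nor was Adsl (-0.46, adjusted p = 0.014 by edgeR), which stayed under the fold limit. The PRPP synthetases Prps1 (0.34, under the fold limit) and Prps2 (0.03) were not called.

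At the branch from IMP to GMP both IMP dehydrogenases rose at 2.5 days. Impdh1 (chr6:29200437-29216364) stood at 8.12 and 10.5 FPKM in Cre- EDL and at 21.6 and 33.9 FPKM in Cre+ EDL at 2.5 days, and at 6.65 and 8.66 FPKM in Cre- and 22.3 and 17.8 FPKM in Cre+ at 8.5 days. Its rise was of like size on both days, with log2 fold changes of 1.23 ± 0.22 (edgeR adjusted p = 0.0014) and 1.20 ± 0.22 (edgeR adjusted p = 0.0033). Impdh2, the form of dividing cells, stood at 28.7 and 28.8 FPKM in Cre- and at 59.6 and 88.4 FPKM in Cre+ at 2.5 days, a log2 fold change of 1.02 ± 0.16 (edgeR adjusted p = 0.00063), and was not called at 8.5 days (0.44). At 8.5 days it was called in 1 of 10 other settings. Its log2 fold change was then 0.23 without Cre- replicate 1 and 0.67 without Cre- replicate 2. Impdh1 made up 22% and 26.8% of the summed FPKM of both forms in Cre- EDL and 26.7% and 27.7% in Cre+ EDL at 2.5 days, and 20.1% and 19.8% against 31.1% and 28.3% at 8.5 days. The share of Impdh1 was thus higher in both Cre+ libraries at 8.5 days, and nearly level at 2.5 days. Gmps, which makes GMP, was not called (0.20 at 2.5 days).

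The branch to AMP and the AMP deaminases held the most abundant members and the lowest log2 fold change. Adssl1, the muscle adenylosuccinate synthetase (chr12:112620047-112641355), stood at 919 and 873 FPKM in Cre- EDL and at 498 and 442 FPKM in Cre+ EDL at 2.5 days, and at 706 and 933 FPKM in Cre- and 413 and 550 FPKM in Cre+ at 8.5 days. Every Cre+ library lay below every Cre- library. Its log2 fold change was -1.26 ± 0.22 (edgeR adjusted p = 0.0014) at 2.5 days and -0.94 ± 0.22 (edgeR adjusted p = 0.013) at 8.5 days, the latter not called without Cre- replicate 2 (-0.71) or Cre+ replicate 1 (-0.70). Ampd1, the muscle AMP deaminase that turns AMP into IMP (chr3:103074014-103099720), stood at 496 and 597 FPKM in Cre- and at 252 and 84.5 FPKM in Cre+ at 2.5 days. The Cre+ libraries differed from each other, and the lower was replicate 2, in which the cassette stood higher. Ampd1 fell by 2.01 ± 0.39 on the log2 scale (edgeR adjusted p = 0.0023). Its log2 fold change was -1.40 without Cre+ replicate 2 and -3.07 without Cre+ replicate 1, called in both. It was not called by edgeR on the 4 libraries alone (-1.99, adjusted p = 0.053). At 8.5 days it stood at 328 and 523 FPKM in Cre- and 287 and 298 FPKM in Cre+, and the difference of -0.72 was not called (edgeR adjusted p = 0.23). That difference was called in 1 of 10 other settings. It was -1.03 without Cre- replicate 1 and -0.33 without Cre- replicate 2.

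Of the partner forms of these genes, Ampd3 went the other way at 2.5 days and Adss was not called. Ampd3, the AMP deaminase of red cells and many tissues, stood at 2.88 and 3.04 FPKM in Cre- EDL and at 8.80 and 5.22 FPKM in Cre+ EDL at 2.5 days, a log2 fold change of 0.93 ± 0.23 (edgeR adjusted p = 0.0090) that was not called without Cre+ replicate 1 (0.44) or without Cre- replicate 1. Its share of the summed FPKM of Ampd1 and Ampd3 was 0.576% and 0.507% in Cre- and 3.38% and 5.82% in Cre+ at 2.5 days, and 1.04% and 0.458% against 1.70% and 1.37% at 8.5 days. In SOL it was 5.53% and 6.16% in Cre- and 11.9% and 10.2% in Cre+ at 2.5 days, and 8.63% and 9.51% against 13.4% and 10.9% at 8.5 days. Thus the Cre+ libraries lay above the Cre- libraries in each of these 4 pairings. At 5.5 days they did so in EDL (0.665% and 0.568% in Cre-, 0.825% and 1.22% in Cre+) and overlapped in SOL (6.80% and 8.30% in Cre-, 8.39% and 6.88% in Cre+). Adss, the synthetase of other tissues, was not called (0.31 at 2.5 days), and its share of the summed FPKM of Adss and Adssl1 was 0.737% and 0.750% in Cre- and 1.54% and 2.91% in Cre+ EDL at 2.5 days. These shares carry no test.

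**Figure D2:**
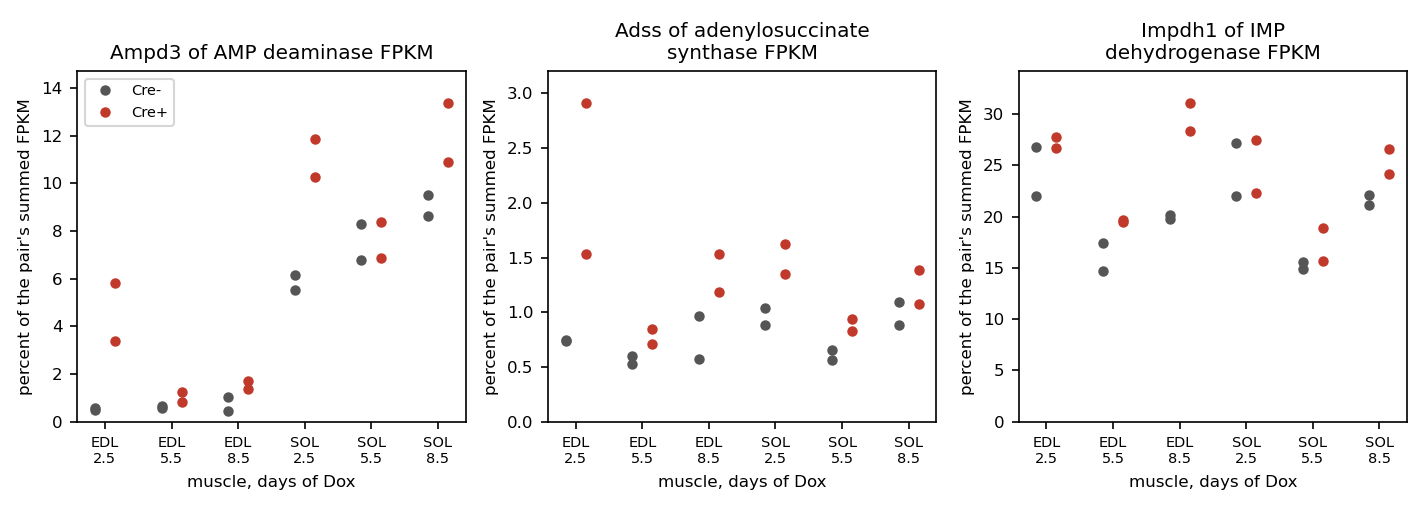
Share of Ampd3, Adss and Impdh1 in the summed FPKM of each gene and its partner form (percent, vertical axes), by library (points), muscle and day of Dox, with Cre- and Cre+ as separate colors. At 2.5 days in EDL the share of Ampd3 was 0.576% and 0.507% in Cre- and 3.38% and 5.82% in Cre+.

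In pyrimidine synthesis, Cad, Umps and Ctps rose at 2.5 days. Cad, the fused enzyme of the opening steps, stood at 2.34 and 2.27 FPKM in Cre- EDL and 3.36 and 6.73 FPKM in Cre+ EDL. Umps, which makes UMP, stood at 2.38 and 2.57 FPKM in Cre- and 4.81 and 6.13 FPKM in Cre+, and Ctps, which turns UTP into CTP, at 6.77 and 7.28 FPKM in Cre- and 11.7 and 23.1 FPKM in Cre+. Replicate 2 of Cre+ was the higher for each of the 3. Their log2 fold changes were 0.78 ± 0.24, 0.81 ± 0.17 and 0.96 ± 0.21 (edgeR adjusted p = 0.028, 0.0039 and 0.0050). Umps was called without any 1 of the 4 libraries, whereas without Cre+ replicate 2 Cad (0.26) and Ctps (0.45) were not, and Cad was also not called without either Cre- library. With the replicate number as a block, Cad was not called (edgeR adjusted p = 0.073). None of the 5 pyrimidine genes was called at 8.5 days by edgeR in the fit of 16 libraries, where Cad stood at 0.56, Umps at 0.45 and Ctps at 0.59 on the log2 scale. Ctps was called there by library size alone (0.77) and by DESeq2 on 4 libraries (0.60), and Umps by library size alone (0.63) and without Cre- replicate 2 (0.71). Dhodh, the mitochondrial dehydrogenase, and Ctps2 were not called at 2.5 days (-0.26 and -0.19).

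Genes of deoxynucleotide supply did not move together. Rrm1, the large subunit of ribonucleotide reductase, stood at 11.8 and 12 FPKM in Cre- EDL and at 8.34 and 8.22 FPKM in Cre+ EDL at 2.5 days, a log2 fold change of -0.85 ± 0.15 (edgeR adjusted p = 0.0013). Rrm2, its S-phase small subunit, stood at 1.13 and 1.06 FPKM in Cre- and 1.98 and 4.9 FPKM in Cre+, a rise of 1.30 ± 0.37 (edgeR adjusted p = 0.021) that was not called without Cre+ replicate 2 (0.57), without either Cre- library or with the replicate number as a block (edgeR adjusted p = 0.071). Tk1, the cytosolic thymidine kinase (chr11:117815519-117826014), stood at 4.55 and 3.99 FPKM in Cre- and 2.61 and 2.38 FPKM in Cre+, a log2 fold change of -1.10 ± 0.21 (edgeR adjusted p = 0.0023). The Cre+ libraries agreed closely for Rrm1 and Tk1 and differed for Rrm2. At 8.5 days Tk1 stood at 3.59 and 2.61 FPKM in Cre- and 4.13 and 4.50 FPKM in Cre+ and was not called (0.30), nor were Rrm1 (-0.40) and Rrm2 (0.24). Tyms, which makes thymidylate, and Nme1, a nucleoside diphosphate kinase, were not called at 2.5 days (0.19 and -0.15). Of 14 genes of dividing cells, such as Mki67 and Top2a, 0 were called in EDL at 2.5 days, where 24% of all genes tested were. Their summed level was 1.66 and 2.21 FPKM in Cre- and 2.81 and 1.82 FPKM in Cre+. Tk1 shares 83 exon bases with Afmid on the other strand.

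**Figure D3:**
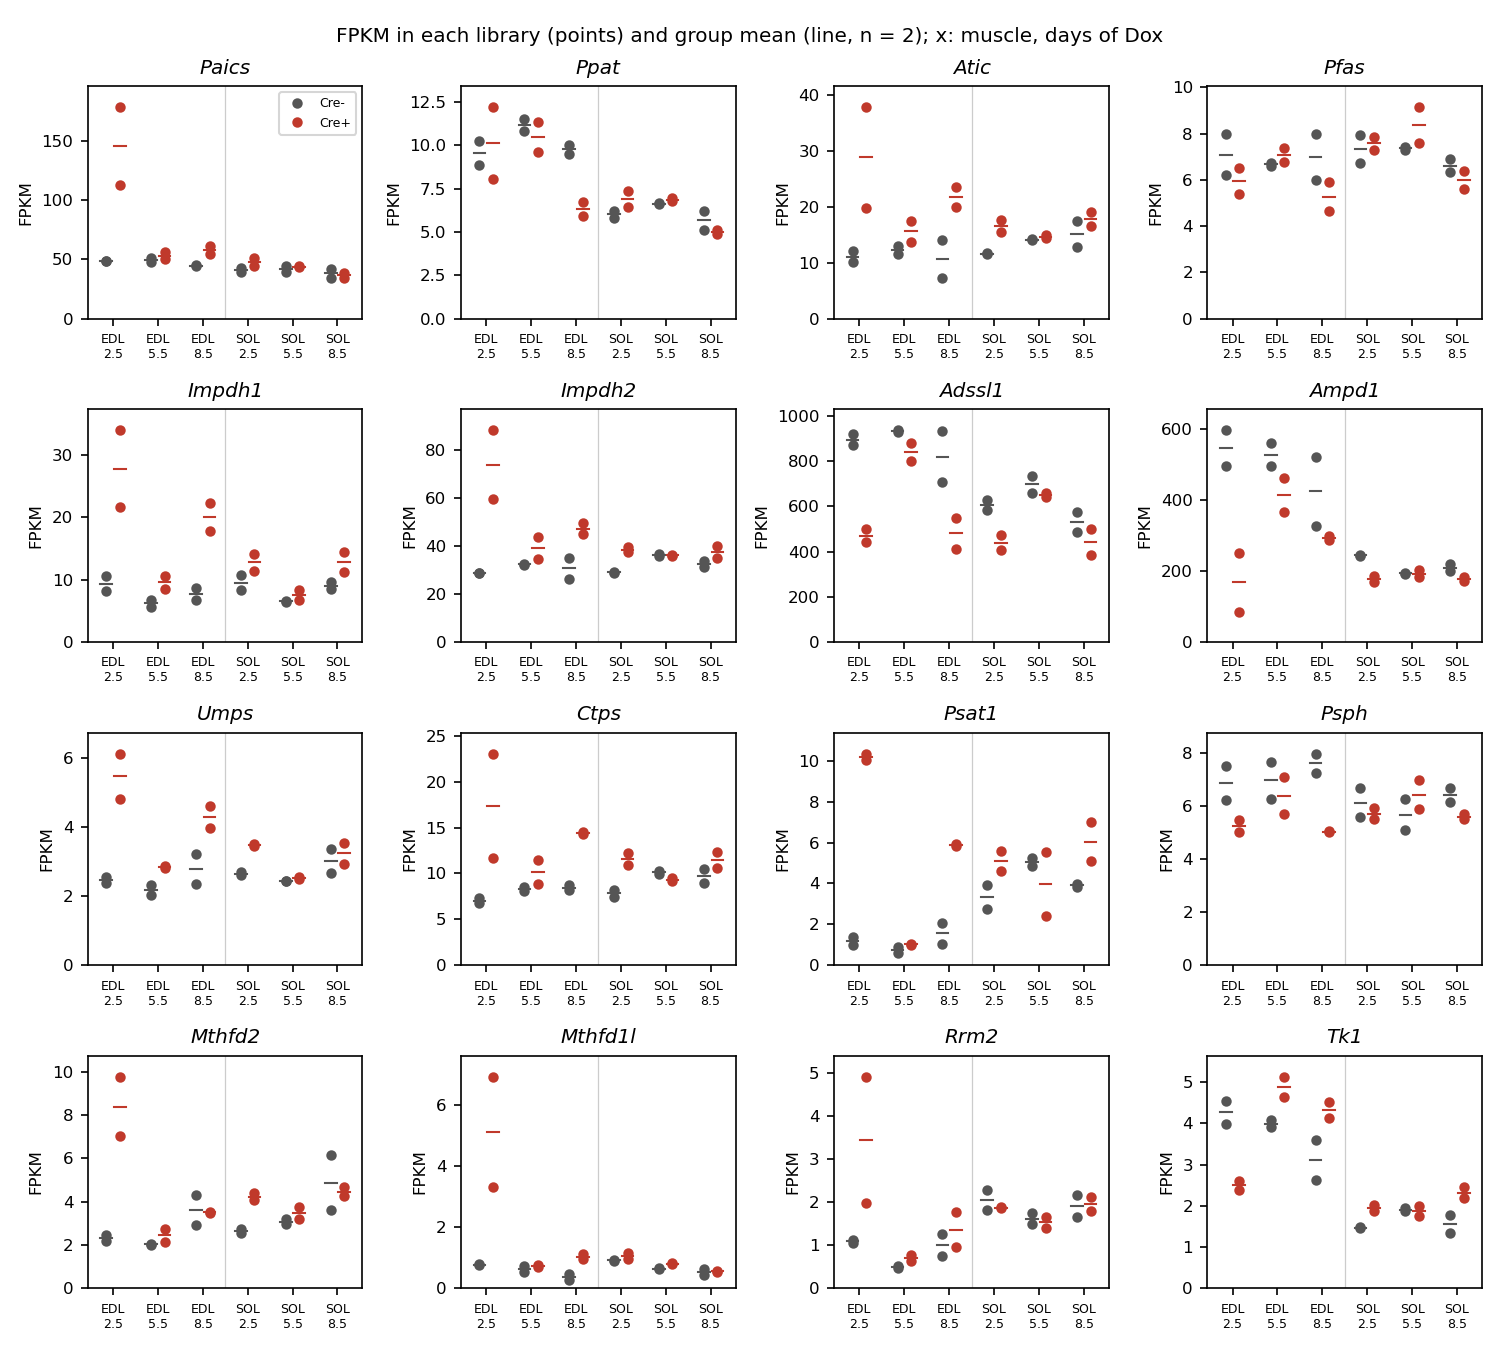
FPKM (vertical axes, from 0) of 16 members in each library (points), by muscle and day of Dox, with Cre- and Cre+ as separate colors and a line at each group mean (n = 2). In EDL at 2.5 days the Cre+ libraries of Psat1 (10.4 and 10.1 FPKM) and Mthfd1l (3.31 and 6.91 FPKM) lie far above Cre-, and those of Ampd1 (252 and 84.5 FPKM) lie below.

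The change in EDL was compared between days by the difference of the log2 fold changes. 0 members were called in that edgeR test, as were 0% of all genes, and 3 members were called by DESeq2. At an unadjusted edgeR p under 0.05 there were 8 members and 1469 of 15372 genes. The lowest adjusted p of a member was 0.20, for Mthfd2, whose log2 fold change was lower at 8.5 than at 2.5 days by 1.73 (difference -1.73). Tk1 had the opposite sign, with a difference of 1.40 (edgeR adjusted p = 0.21). Members called on one of these days and not on the other are therefore not shown to differ between days by this test.

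At 5.5 days, 0 of the 33 members were called in Cre+ EDL by edgeR and 0 by DESeq2, where edgeR called 0.304% of 15478 genes tested. An unadjusted edgeR p under 0.05 was found for 1 member and for 1307 of all genes. The log2 fold changes ran from -0.50 for Ampd1 to 0.56 for Tyms. Psat1 stood at 0.905 and 0.588 FPKM in Cre- and 0.995 and 1.03 FPKM in Cre+, and Mthfd1l at 0.721 and 0.544 FPKM in Cre- and 0.684 and 0.759 FPKM in Cre+. Neither gene showed at 5.5 days the levels of the Cre+ libraries of 2.5 days. Myc stood at 4.19 FPKM in Cre+ replicate 1 and at 42.8 FPKM in Cre+ replicate 2. Whether the cassette level bears on these values was not tested.

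In SOL muscles 0 of the 33 members were called at any day by edgeR, where 0.384% of all genes were called at 2.5 days, 0.631% at 8.5 days and 0% at 5.5 days. The cassette was low in Cre+ SOL at 5.5 days, where Myc stood at 1.88 and 1.95 FPKM (1.34 and 1.25 FPKM in Cre-) and Pou5f1 at 0.0785 and 0.387 FPKM, against 8.17 to 18.1 FPKM of Myc in Cre+ SOL on the other days. At an unadjusted edgeR p under 0.05 there were 2 members at 2.5 days, 2 at 8.5 days and 1 at 5.5 days, with lowest adjusted p-values of 0.25, 0.662 and 1. Over all genes tested there were 2053 of 15372, 1015 of 15372 and 597 of 15478. DESeq2 on all libraries called 0, and DESeq2 on the 4 SOL libraries of 2.5 days called Adssl1 (-0.63) and Ampd1 (-0.62). The log2 fold changes ran from -0.62 for Adssl1 to 0.53 for Mthfd2 at 2.5 days, from -0.44 for Phgdh to 0.59 for Psat1 at 8.5 days and from -0.48 for Phgdh to 0.47 for Prps2 at 5.5 days. Adssl1 stood at 629 and 582 FPKM in Cre- and 407 and 472 FPKM in Cre+ at 2.5 days, and Ampd1 at 241 and 246 FPKM in Cre- and 169 and 187 FPKM in Cre+. Neither pair of groups overlapped, and neither difference was called (edgeR, -0.62 with adjusted p = 0.25 for Adssl1 and -0.61 for Ampd1).

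Psat1 stood in SOL at 3.93 and 2.76 FPKM in Cre- and 5.61 and 4.62 FPKM in Cre+ at 2.5 days, and at 3.82 and 3.99 FPKM in Cre- and 7.03 and 5.08 FPKM in Cre+ at 8.5 days. The Cre+ libraries lay above the Cre- libraries on both days, with log2 fold changes of 0.46 and 0.59 that were not called. At 5.5 days the groups overlapped, at 4.85 and 5.23 FPKM in Cre- and 2.42 and 5.53 FPKM in Cre+. Mthfd1l stood at 0.895 and 0.935 FPKM in Cre- and 0.951 and 1.15 FPKM in Cre+ at 2.5 days (log2 fold change 0.04). Paics stood at 39.0 and 42.5 FPKM in Cre- and 44.7 and 51.2 FPKM in Cre+ at 2.5 days (0.08). Impdh1 stood at 8.28 and 10.7 FPKM in Cre- and 14.2 and 11.4 FPKM in Cre+ at 2.5 days, and at 8.42 and 9.54 FPKM in Cre- and 14.4 and 11.2 FPKM in Cre+ at 8.5 days. In FPKM its groups did not overlap on either day, and it was not called. With TMM-scaled library sizes the Impdh1 groups overlapped at 2.5 days and not at 8.5 days. In FPKM, 19 members had both Cre+ libraries above both Cre- libraries at 2.5 days and 3 below, where 43.8% and 10.5% of all genes did so, and 8 and 6 did at 8.5 days, where 21.3% and 14.5% of all genes did so. Median log2 fold changes were 0.07 over the members and 0.02 over all genes at 2.5 days, and 0.02 and -0.01 at 8.5 days.

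The change in EDL was then tested against the change in SOL. At 2.5 days 4 of the 33 members differed, 3 upwards (9.09%) and 1 downwards (3.03%), where 4.25% of all genes tested did, 3.36% upwards and 0.891% downwards. The log2 fold change was higher in EDL by 2.33 ± 0.43 for Mthfd1l (edgeR adjusted p = 0.012), by 2.32 ± 0.41 for Psat1 (edgeR adjusted p = 0.011) and by 1.16 ± 0.22 for Paics (edgeR adjusted p = 0.015). For Tk1 the difference was -1.35 ± 0.31 (edgeR adjusted p = 0.032). Tk1 stood in SOL at 1.48 and 1.47 FPKM in Cre- and 2.01 and 1.87 FPKM in Cre+ at 2.5 days, a log2 fold change of 0.25, so that its Cre+ libraries lay above Cre- in SOL and below it in EDL. DESeq2 on 16 libraries called 7 members upwards and 1 downwards, and edgeR on all 24 libraries 5 and 1. The shares of all genes given above belong to edgeR on 16 libraries, not to these 2 fits. Leaving out 1 of the 8 libraries changed the number of members called, and that of all genes called. It kept the direction of each of the 4 but ended some calls. Psat1 was not called without Cre- replicate 1 of either muscle or Cre+ SOL replicate 2 (edgeR adjusted p up to 0.0634), and Mthfd1l not without either Cre- EDL or either Cre+ SOL library (up to 0.0557). Paics was called only without a Cre+ EDL library (otherwise up to 0.0651), and Tk1 only without Cre+ EDL replicate 1 (otherwise up to 0.123). With EDL and SOL of one mouse as a block, Mthfd2 was called as well (0.97). For Ampd1, which fell in EDL, the difference of -1.40 was not called (edgeR adjusted p = 0.16). That difference was -2.46 without Cre+ EDL replicate 1 and -0.80 without Cre+ EDL replicate 2. At 8.5 days 0 members differed by edgeR, against 0.592% of all genes, and 0 by DESeq2. At an unadjusted edgeR p under 0.05 there were 5 members and 1729 of 15372 genes.

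**Figure D4:**
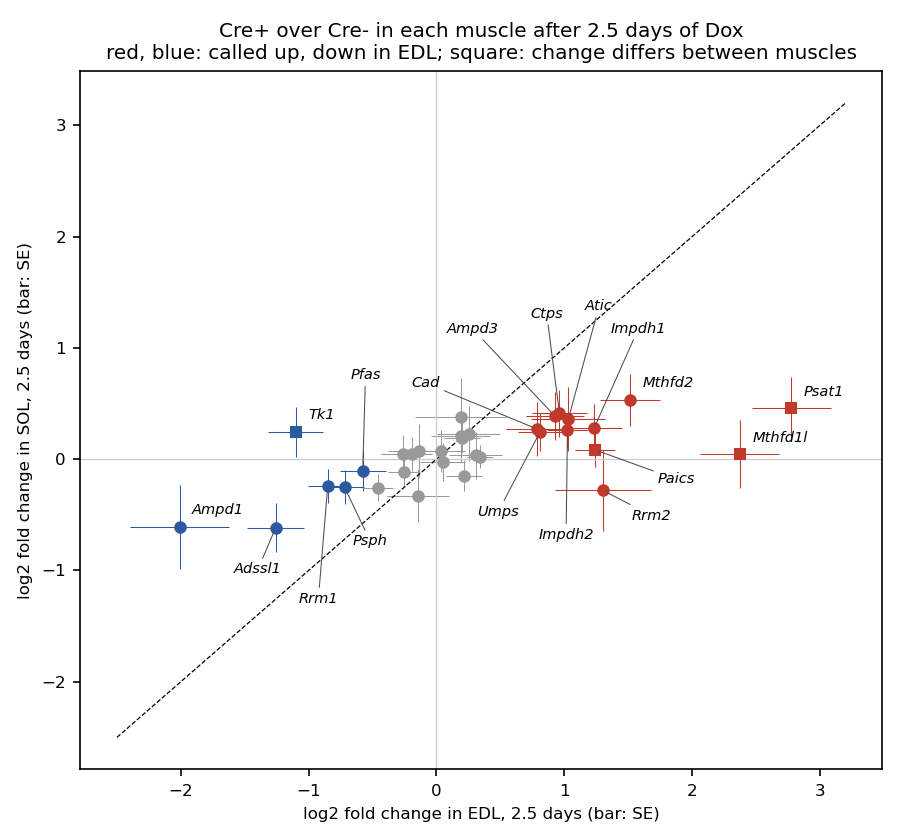
Log2 fold change of Cre+ against Cre- in EDL (horizontal axis) and in SOL (vertical axis) for the 33 members at 2.5 days (points, with bars for the SE), with the line of equal change dashed and squares for members whose change differed between the muscles. At 2.5 days Psat1 (2.78 and 0.46) and Mthfd1l (2.37 and 0.04) lie far from that line and Tk1 (-1.10 and 0.25) lies on the other side of it.

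The Cre- libraries of 2.5 and 8.5 days (4 per muscle) gave the levels of the members without induction. Between EDL and SOL, 9 members differed, 5 higher in EDL (15.2%) and 4 lower (12.1%), where 21.9% of all genes differed, 10.8% higher and 11.1% lower. Of the purine nucleotide cycle genes, the muscle forms Ampd1 and Adssl1 were higher in EDL and Adsl was not called, with Ampd1 at 486 ± 114 FPKM against 227 ± 21.2 FPKM in SOL (SD, n = 4) and Adssl1 at 858 ± 104 FPKM against 568 ± 58.5 FPKM. Their log2 differences were 1.19 and 0.69. Ampd3 was lower in EDL, at 2.95 ± 0.437 FPKM against 18.1 ± 3.84 FPKM (log2 difference -2.5, edgeR adjusted p = 4.0e-07). The serine genes Psat1 (1.37 ± 0.505 against 3.62 ± 0.579 FPKM, log2 difference -1.31) and Phgdh (1.62 ± 0.329 against 3.46 ± 1.41 FPKM, -0.94) were also lower in EDL, with overlapping ranges for Phgdh. Rrm1 (0.81), Tk1 (1.35) and Ppat (0.82) were higher in EDL, and Rrm2 was lower (-0.82, edgeR adjusted p = 0.033), a call that stood only without Cre- SOL replicate 1 or Cre- EDL replicate 2 of 8.5 days among the 8 omissions of a library.

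**Figure D5:**
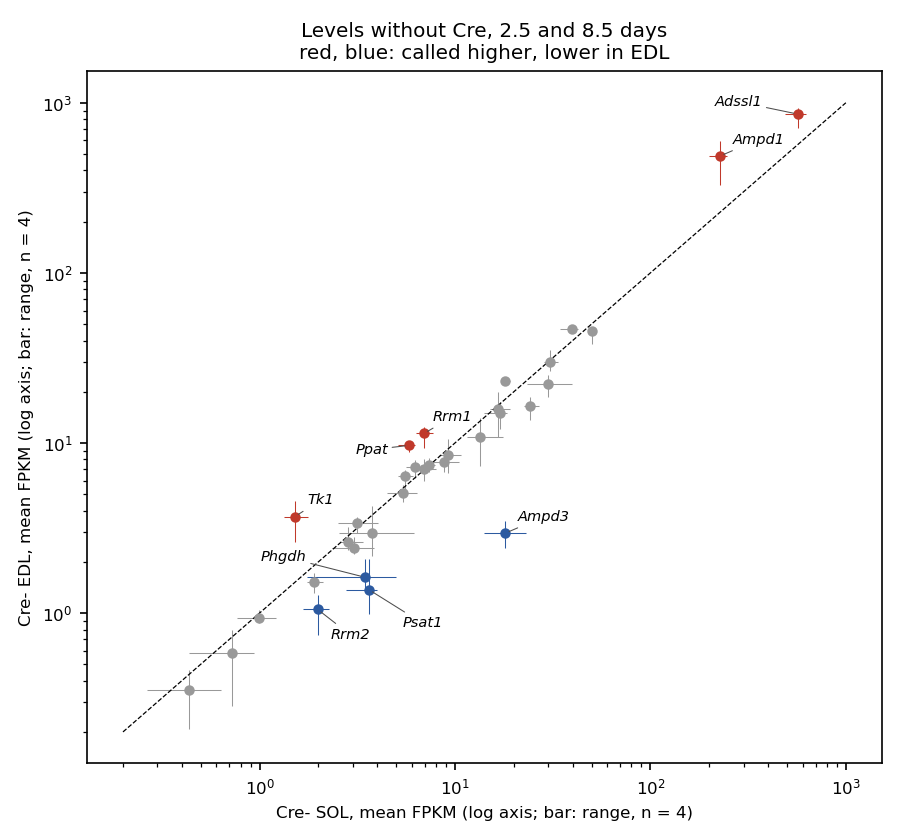
Mean FPKM of the 33 members in Cre- SOL (horizontal axis) and Cre- EDL (vertical axis), on log axes, over 4 libraries of 2.5 and 8.5 days each (bars: range), with the members that differed in color. Ampd3 (18.1 FPKM in SOL and 2.95 FPKM in EDL) lies farthest from the line of equal level.

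Of 73 other genes of folate, methionine and nucleotide metabolism, 71 were tested. In Cre+ EDL 13 rose and 10 fell at 2.5 days (13.8% and 10.2% of all genes tested did), 8 rose and 7 fell at 8.5 days (7.63% and 6.5% of all genes), and 0 were called in SOL or at 5.5 days. The 3 with the largest rise at 2.5 days were Ak4, a mitochondrial adenylate kinase (3.74 ± 0.56, with 1.83 and 1.43 FPKM in Cre- and 9.36 and 46.7 FPKM in Cre+), Dctd, which deaminates dCMP (2.68 ± 0.50), and Nt5e, the ectonucleotidase that splits AMP (2.07 ± 0.39). None of the 3 was called at 8.5 days. The 3 with the largest fall were Cth, which makes cysteine from cystathionine (-1.38 ± 0.32), Aldh1l1, which consumes 10-formyl-folate (-1.23 ± 0.33), and Ak1, the muscle adenylate kinase (-1.21 ± 0.21, with 803 and 1019.7 FPKM in Cre- and 549 and 443 FPKM in Cre+). Cth (-1.66) and Ak1 (-0.79) fell at 8.5 days as well. Ak1 thus fell on the same days as Adssl1.

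Marker genes of fibers and other cells were read beside the members. Of 9 fast fiber markers 5 fell in Cre+ EDL at 2.5 days, when Ampd1 and Adssl1 fell, and 2 fell at 8.5 days, where 10.2% and 6.5% of all genes tested fell. Their summed level was 101823 and 111916 FPKM in Cre- and 84057 and 67304 FPKM in Cre+ at 2.5 days. Of the slow fiber markers 0 were called. Of 8 endothelial markers 5 fell, with sums of 137 and 150 FPKM in Cre- and 120 and 114 FPKM in Cre+. Of 7 satellite cell markers 1 rose (Itga7, 2.20), where 13.8% of all genes tested rose in EDL at 2.5 days. Of 12 macrophage markers 0 were called, where 24% of all genes were, with sums of 109 and 88.2 FPKM in Cre- and 119 and 80.0 FPKM in Cre+. Of 17 liver markers 8 fell in Cre+ EDL at 8.5 days, with sums of 24.3 and 22.7 FPKM in Cre- and 16.3 and 20.3 FPKM in Cre+, and 15 fell in Cre+ SOL at 8.5 days, where 0.631% of all genes were called and the sums were 85.6 and 209 FPKM in Cre- and 22 and 29.6 FPKM in Cre+. These Cre- SOL libraries also enter the comparison of Cre- EDL with Cre- SOL, where the liver sum of Cre- SOL at 2.5 days was 45.7 and 8.64 FPKM. The part of these lists in the results was not tested.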

How the data were processed

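Per the labels and the study's methods, the authors aligned stranded single-end polyA reads with STAR 2.5.3a to mm10 and deposited raw counts per RefSeq gene made with HOMER; their submitters' notes also name FastQC 0.11.2. The deposited length of each gene was used for FPKM, computed here from the deposited counts and each library's total. The deposited counts were tested in edgeR 4.0.16 (R 4.3.3; TMM, filterByExpr with a minimum count of 10, glmQLFit and glmQLFTest) with the 8 groups of 2.5 and 8.5 days in one fit of 16 libraries, and 5.5 days from a fit of 24 libraries. P-values were adjusted by Benjamini-Hochberg over all genes tested. Genes were called at an adjusted p under 0.05 and a log2 fold change over 0.5 in size. The biological coefficient of variation was 0.174. With 2 libraries against 2, an exact two-sided permutation test of 1 gene cannot go below p = 0.333, so no such test is given.

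Values in each EDL library of 2.5 and 8.5 days were given for members called in EDL on both days and for the extremes at 2.5 days. They were also given for members called in SOL or in the change compared between muscles. Values of Atic, Impdh2, Ppat, Mthfd2, Ampd3, the pyrimidine genes, Rrm1 and Rrm2 were added after they were seen. Values in SOL or at 5.5 days were given for some members. Of other pathway genes with a mean of at least 1 FPKM, the 3 largest rises and falls were named. The members and lists were chosen with earlier results of these data known. Same-numbered libraries of both muscles deviated together (correlation 0.174 to 0.441 in 6 groups). The number was therefore taken to mark 1 mouse in an alternative fit of the comparisons of muscles. The main fit had no term for the mouse, so its p-values for these comparisons leave that pairing out. Alternatives were DESeq2 1.42.0, other scalings, filters and sets of libraries, replicate blocks and leaving out each library. The scripts were tested on simulated data.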

Additional observations from a re-analysis of the deposited data

Results flagged for a closer look

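The Cre+ change at 2.5 days differed between EDL and SOL for Mthfd1l (by 2.33 on the log2 scale), Psat1 (2.32), Paics (1.16) and Tk1 (-1.35), each by the edgeR test of the difference itself given above.

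Among the 66 sets of 4 Cre- libraries examined (33 members in each muscle), 3 held a library far from the others by Dixon's ratio at its usual critical value, where chance gives about 1 in 20. Adsl stood at 38.4 FPKM in Cre- EDL replicate 1 of 8.5 days, against 47.1 to 48.1 FPKM in the others. Umps stood at 3.36 FPKM in Cre- SOL replicate 2 of 8.5 days, against 2.60 to 2.69 FPKM, and Psat1 at 2.76 FPKM in Cre- SOL replicate 2 of 2.5 days, against 3.82 to 3.99 FPKM.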

How the results depend on the processing

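Of the values recomputed under another test, scaling, filter, block or set of libraries, 761 kept their direction and side of the threshold, 20 passed it only there, 18 lost it and 5 changed sign. FPKM levels were also recomputed with TMM-scaled library sizes. Of 396 group means, 238 then moved by less than the SD of their group and 158 by that much or more. With edgeR on the 4 libraries of a comparison alone, 7 members rose and 3 fell in EDL at 2.5 days and 2 fell at 8.5 days, a fit with fewer libraries to estimate the spread. DESeq2 on 16 libraries called 7 members upwards in the difference between muscles at 2.5 days, where all 24 libraries in edgeR gave 5, and 2 downwards and 1 upwards in the difference between days (Mthfd2, -1.76, and Tk1, 1.38, among them). DESeq2 on 4 libraries called 5 upwards in EDL at 8.5 days and 2 downwards in SOL at 2.5 days. Library size alone called 7 upwards in EDL at 8.5 days and turned the sign at 2.5 days of Ctps2 (0.14), Dhodh (0.076), Nme1 (0.20), Phgdh (0.19) and Ppat (0.081), none of them called in either scaling. The shares of all genes called in these settings are not given here, and the cause of these shifts was not tested.

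With the replicate number within muscle and day as a block, Cad (0.72, edgeR adjusted p = 0.073) and Rrm2 (1.18, edgeR adjusted p = 0.071) were not called in EDL at 2.5 days. Cre+ and Cre- libraries of one number share only that number (correlation of deviations -0.171 to 0.0580). With EDL and SOL of one mouse as a block, Mthfd2 (0.97) was also called in the difference between muscles at 2.5 days. The blocks changed no other call of a member.

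Leaving out each library in turn gave 8 to 13 members up and 5 to 6 down in EDL at 2.5 days, 2 to 7 up and 0 to 4 down in EDL at 8.5 days, 0 to 8 up and 0 to 2 down between muscles at 2.5 days, and 0 to 2 up and 0 to 3 down between days. Values that changed sign in EDL at 2.5 days were those of Gart (-0.16 to 0.23), Adss (-0.072 to 0.61), Prps2 (-0.047 to 0.11), Shmt1 (-0.24 to 0.62), Mthfd1 (-0.038 to 0.39), Tyms (-0.091 to 0.54) and Nme1 (-0.47 to 0.12), and at 8.5 days, among the 19 members examined in this way, Mthfd2 (-0.48 to 0.11) and Rrm2 (-0.21 to 0.70). In SOL, among 7 members examined at 2.5 days and 6 at 8.5 days, they were Paics (-0.017 to 0.18) and Mthfd1l (-0.096 to 0.17) at 2.5 days and Paics (-0.19 to 0.00058) and Mthfd1l (-0.18 to 0.26) at 8.5 days. The number of all genes called also moved with the library left out, in EDL at 2.5 and 8.5 days, between muscles at 2.5 days and between days. The ranges of members called are therefore not specific to the members. The 2 libraries in each group limit every comparison.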
